A study of Mus musculus with 12 samples.

Results

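The comparison described here is that of Bach2-/- with wild-type (WT) mouse splenic follicular B cells after 24 h of B cell receptor stimulation. It rests on 6 of the 12 arrays of the study, chosen by their labels: 3 arrays of Bach2-/- cells and 3 of WT cells, all stimulated for 24 h with 10 µg/mL of the Fab' form of an antibody to mouse IgM. The other 6 arrays, 3 per genotype, held cells taken at 0 h. They entered the same fit, so that all 4 groups share 1 estimate of the spread, and the p-values at 24 h draw on them too. At 24 h, 4469 genes passed the test with all 12 arrays and 2294 with the 6 arrays of 24 h alone. The arrays of 0 h also let the genotype difference be set beside that before stimulation. Each mouse of either genotype was labelled as male and of the C57BL/6J strain. Purified follicular B cells were cultured in RPMI1640 medium, total RNA was labelled with the dye Cy3, and each RNA was hybridised to a 1-colour Agilent array of the whole mouse transcriptome. The sources used here do not state the age of the mice, the allele behind the Bach2-/- label or whether the 3 arrays of a group came from separate mice, so the p-values measure the spread between these RNA samples, which may be technical.

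Bach2 is a transcriptional repressor of the basic leucine zipper family. It pairs with small MAF proteins and binds MAF recognition elements, whose core is the site also bound by AP-1, the dimer of FOS and JUN proteins. In B cells it is known to hold back Prdm1, which encodes Blimp-1, the regulator of plasma cell differentiation, and it is needed for germinal centres and for antibody class switching. Crosslinking of IgM brings resting follicular B cells out of quiescence into the first division cycles. CDK inhibitors such as p21 (Cdkn1a), p16INK4a (Cdkn2a) and p15 (Cdkn2b) hold cells before S phase, and D-type cyclins drive them into it. Cdkn2a also encodes p19ARF, which is no CDK inhibitor and acts through MDM2 and p53.

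A level below is the log2 of a probe's signal relative to the 75th percentile of its own array, and values are given for arrays 1, 2 and 3 in that order. A difference is the level in Bach2-/- minus that in WT with its standard error, n = 3 arrays per genotype. It was tested with limma with the replicate number as a block, and adjusted p is the Benjamini-Hochberg value over the 22744 genes whose probe was well above background throughout 1 or more of the 4 groups (all 3 arrays). "Higher", "lower", "rose" and "fell" are used only of genes with an adjusted p under 0.05. Levels of different genes cannot be compared.

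Array 1 of every group lay on a different slide, scanned separately, from arrays 2 and 3. The 75th percentile of signal ranged from 97.3 on Bach2-/- array 2 of 24 h to 358 on Bach2-/- array 1 of 24 h, 50.9% to 66.7% of spots were well above background, and no spot was saturated. Sex-linked genes went against the labels on some arrays: Xist, which is transcribed from the inactive X chromosome of females, was well above background on array 1 of all 4 groups and on Bach2-/- array 3 of 0 h, and no Y-linked gene of the 4 examined was above background on Bach2-/- array 1 of 0 h. On array 1 of each 24 h group both Xist (-1.49 in WT and -2.32 in Bach2-/-) and the Y-linked gene Ddx3y (0.16 in WT and 1.40 in Bach2-/-) were above background. All 10 markers of mature follicular B cells examined were above background on all 3 arrays of each group.

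After 24 h of anti-IgM, 4469 of 22744 genes differed between the genotypes (19.6%), of which 1850 were higher in Bach2-/- (8.13% of those tested) and 2619 lower (11.5%). Falls were more frequent but smaller. The median difference was 1.05 among higher genes and -0.71 among lower ones, against -0.055 over all genes. At least 2-fold differences were found for 976 higher genes (4.29%) and 505 lower genes (2.22%), and at least 8-fold differences for 143 higher and 8 lower genes. No overlap between WT and Bach2-/- arrays was seen for 3716 genes (16.3%). Of the 4469 called genes, 2517 showed no such overlap. In all 3 pairs of arrays with the same number the sign was the same for 4438 of them. The test was blocked on that number, so its calls favour such agreement, which is no separate evidence.

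Most calls depended on the block. Without it 729 genes passed, 514 higher (2.26%) and 215 lower (0.945%), so that 70.5% of the calls were higher in place of 41.4%. All 729 were among those called with the block. Calls also depended on single arrays: without WT array 1, 2 or 3 there were 1686, 1935 and 2196, and without Bach2-/- array 1 or 2 there were 2926 and 2900. Without array 1 of both genotypes, the pair with Xist signal, 902 genes were higher and 582 lower. A core of 378 higher and 135 lower genes passed in each of the 18 alternatives in which they had a value.

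**Figure D1:**
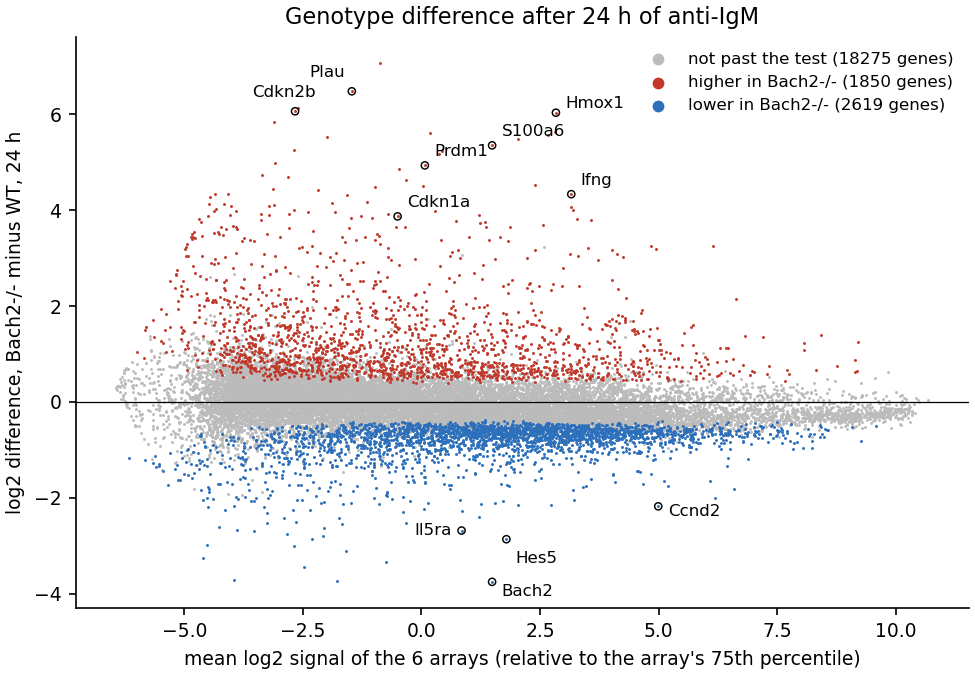
Difference between Bach2-/- and WT after 24 h (log2, y axis) against the mean log2 level of the 6 arrays (x axis), 1 point per gene, red where higher, blue where lower and grey where not past the limma test. Rises reach above 6 on the log2 scale, while few falls pass -3.

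The targeted gene checked the labels. The level of Bach2 was 3.49, 3.06 and 3.55 on the WT arrays and -0.072, -1.01 and -0.086 on the Bach2-/- arrays. All 3 Bach2-/- arrays lay below all 3 WT arrays, with a difference of -3.76 ± 0.16 (adjusted p = 1.9e-06), and the probe was still well above background on each of them. The sources used here do not say which part of the gene is deleted, so the remaining signal cannot be assigned to a transcript. Among the 9 BACH, small MAF and NFE2 factors tested, 5 were higher and 1, Bach2 itself, was lower. The small MAF partner Maff rose by 1.41 ± 0.23 (adjusted p = 0.00356). Nfe2, a relative of NRF2, rose by 1.59 ± 0.31 (adjusted p = 0.0087, 0.000655 to 0.0841 over the alternatives, past the threshold in each but that on slide 1 alone). The large MAF factor Maf, an activator of cytokine genes in lymphocytes, was -4.32, -4.26 and -2.84 on the WT arrays and -0.58, 1.62 and -0.55 on the Bach2-/- arrays. All Bach2-/- arrays were above the WT arrays (difference 3.97 ± 0.56, adjusted p = 0.00171), whereas at 0 h Maf was lower in Bach2-/- (-2.68 ± 0.56, adjusted p = 0.0296). Bach1, the related repressor that binds heme, differed by 0.53 ± 0.14 (adjusted p = 0.0286, 0.01 to 0.329 over the alternatives, past the threshold in 8 of 18 and not without the block or without WT arrays 1, 2 or 3 or Bach2-/- arrays 1 or 3).

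The largest rise among genes well above background on all 6 arrays was that of Hmox1, heme oxygenase 1, which breaks down heme and is a textbook target of BACH repressors. Its level was -0.22, -0.056 and -0.27 on the WT arrays and 6.00, 5.94 and 5.61 on the Bach2-/- arrays. The 3 Bach2-/- arrays stood far above the WT arrays, with a difference of 6.04 ± 0.15 (adjusted p = 7.59e-08). Genes of heme and iron handling gave few other calls. Of the list, 3 of 19 tested were higher and 1 lower (2 and 0 without the block), with a median log2 difference of 0.14. With 1 array left out, the count of higher genes was 5 without Bach2-/- array 1. The higher members besides Hmox1 were Fth1, the ferritin heavy chain that stores iron (1.40 ± 0.16, adjusted p = 0.000484), and Slc48a1, a heme transporter (1.32 ± 0.13, adjusted p = 0.000201, 5.88e-05 to 0.0659 over the alternatives, past the threshold in each but that without the block).

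Enzymes of the antioxidant response, which NRF2 activates through elements that resemble MAF recognition elements, were all higher where they changed. Of the list, 11 of 25 tested were higher and 0 lower (4 and 0 without the block), with a median log2 difference of 0.26. Srxn1, sulfiredoxin, which repairs oxidised peroxiredoxins, was -3.76, -2.64 and -3.27 on the WT arrays and 1.86, 0.83 and 1.09 on the Bach2-/- arrays. The genotypes were separated by 4.49 ± 0.31 (adjusted p = 2.58e-05), and at 0 h the gene was not well above background on any array. Me1, the cytosolic malic enzyme that makes NADPH, was not above background in WT cells and was at least 2.89-fold higher in Bach2-/- (adjusted p = 5.38e-07). Nqo1, a quinone reductase, rose by 3.12 ± 0.23 (adjusted p = 3.81e-05). The remaining 8 higher members had smaller differences, from 0.55 for Gclc, the catalytic subunit of glutathione synthesis, to 1.03 for Osgin1. Txnrd1, thioredoxin reductase, was among them at 0.90 ± 0.15 (adjusted p = 0.00434, 0.000446 to 0.323 over the alternatives, past the threshold in each but those without the block and on slide 1 alone).

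Because Bach2 is a DNA-binding repressor, promoter windows from RefSeq (build GRCm38.p6), 250 bases before to 50 after each start, were searched for the 7 letters TGAGTCA, the core shared by AP-1 sites and MAF recognition elements, on either strand (TGACTCA on the other). Of the 13134 tested genes with a RefSeq symbol, 10533 had at least 1 window, 13307 windows in all, of which 3.85% held the core. The share was 6.34% of 1214 windows of higher genes, 7.06% of 666 windows of genes higher by at least 2-fold and 9.43% of 244 windows of genes higher by at least 4-fold. It was 2.73% of 2091 windows of lower genes and 3.78% of 370 windows of genes lower by at least 2-fold. For genes not past the test it was also 3.78%, of 10002 windows. Windows of genes higher by at least 4-fold also had a lower GC content (a mean of 56.1% against 59.5% for all) and held GGGCGG less often (44.7% against 58.0%), while CCAAT was found in 35.2% against 37.9%, both counted on either strand. Windows of 1 gene can overlap, and letters in a window do not show binding. The sites below are those of the 4 largest rises and the 2 largest falls among named genes whose printed stretch lies wholly before the start. Each is the core in capitals with 20 bases on either side, read 5′ to 3′ on the gene's own strand.
Srxn1, site 1 (chr2:152105402-152105448, plus strand): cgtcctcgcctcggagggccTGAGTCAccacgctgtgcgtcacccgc
Srxn1, site 2 (chr2:152105459-152105505, plus strand): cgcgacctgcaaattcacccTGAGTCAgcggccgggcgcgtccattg
AA467197 (chr2:122637794-122637840, plus strand): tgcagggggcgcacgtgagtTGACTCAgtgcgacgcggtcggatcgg
Rsad2 (chr12:26456513-26456559, minus strand): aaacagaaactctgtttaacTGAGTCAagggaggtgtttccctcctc
Cxcl10 (chr5:92348937-92348983, minus strand): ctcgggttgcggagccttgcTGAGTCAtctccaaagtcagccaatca
Il5ra (chr6:106749110-106749156, minus strand): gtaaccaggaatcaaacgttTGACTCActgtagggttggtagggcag
Tnfsf14 (chr17:57194315-57194361, minus strand): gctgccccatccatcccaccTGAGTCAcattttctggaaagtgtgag

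The Cxcl10 site is the one of these in which the letters TGC stand directly before the core, the longer form of a MAF recognition half-site. The letters TGC directly before the core in either orientation, or GCA directly after it, were found in 27 of the 13307 windows. Srxn1 holds the core at 2 places, 102 and 45 bases before its start. Of 134 named genes with a window, 12 past the test hold the core: 7 that rose (with Me1, Anxa2 and Aldoa besides those printed) and 5 that fell (with Fas, Tnfaip3 and Tmcc3). Hmox1 and Prdm1 are not among these 12. The share over all tested genes was counted per window and not per gene, so the 12 have no background to be read against. The lower genes Il5ra and Tnfsf14 carry the same letters as the higher Srxn1 and AA467197.

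**Figure D2:**
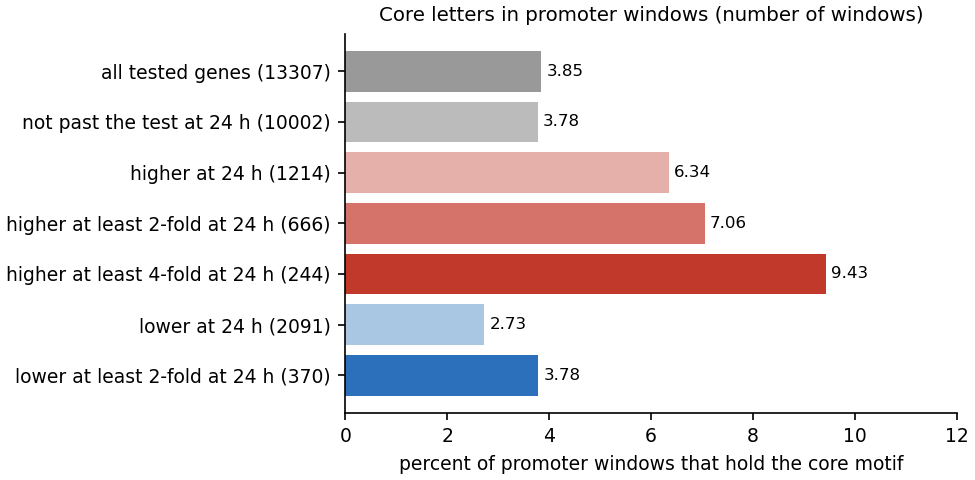
Percent of promoter windows that hold the core letters on either strand (x axis), for all tested genes and for genes grouped by their call at 24 h, with the number of windows in brackets. The share goes from 3.85% for all tested genes to 9.43% for genes at least 4-fold higher in Bach2-/-.

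Cell cycle inhibitors of both families rose. Cdkn1a, which encodes p21, was -2.01, -2.33 and -2.98 on the WT arrays and 1.89, 1.41 and 1.00 on the Bach2-/- arrays. The groups did not overlap and differed by 3.87 ± 0.17 (adjusted p = 2e-06), whereas at 0 h the difference was -0.69 ± 0.17 (adjusted p = 0.0614). Cdkn2b was -5.44, -6.19 and -5.46 on the WT arrays and 0.12, 0.58 and 0.40 on the Bach2-/- arrays, and it was not well above background on any WT array. It was at least 31.6-fold higher in Bach2-/- (adjusted p = 1.68e-06). Cdkn2a, whose locus adjoins Cdkn2b, was likewise dim in all WT arrays and at least 21.6-fold higher in Bach2-/- (adjusted p = 0.000372). A bound of this kind sets the Bach2-/- mean against the lowest signal measured above background in WT. Whether the probe for Cdkn2a separates p16INK4a from p19ARF transcripts was not tested. The other inhibitors that changed were lower by small amounts: p27 (Cdkn1b, -0.68 ± 0.15, adjusted p = 0.0168), p57 (Cdkn1c, -0.92 ± 0.28, adjusted p = 0.0468) and p19INK4d (Cdkn2d, -0.63 ± 0.18, adjusted p = 0.036). None of these 3 falls passed without the block, at adjusted p 0.125, 0.165 and 0.202, and over the alternatives their adjusted p ranged from 0.0043 to 0.153, 0.0398 to 0.716 and 0.0137 to 0.277. For p27 the fits without WT array 1 or 3 or Bach2-/- array 1 were among those that ended the call. The difference of Cdkn2c (p18) was -0.38 ± 0.23 (adjusted p = 0.264). In count, 3 of 7 tested were higher and 3 lower (3 and 0 without the block), with a median log2 difference of -0.38. Leaving out single arrays, the count of lower genes was 0 without WT array 1 or Bach2-/- array 1 and 1 without WT array 3 or Bach2-/- array 3.

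Of the D-type cyclins, Ccnd2 fell. Its level was 6.55, 5.86 and 5.84 on the WT arrays and 4.95, 2.69 and 4.08 on the Bach2-/- arrays. The highest Bach2-/- array was below the lowest WT array, but the 3 Bach2-/- arrays themselves were spread more widely than those of WT, and the difference was -2.18 ± 0.30 (adjusted p = 0.00152). The difference of Ccnd3 was -0.41 ± 0.16 (adjusted p = 0.0959) and that of Ccnd1 0.033 ± 0.39 (adjusted p = 0.96), which turned negative under some alternatives. Among G1 cyclins, CDKs, RB and E2F genes as a whole, 0 of 16 tested were higher and 2 lower (0 and 1 without the block), with a median log2 difference of -0.34. Rbl1, an RB relative, was the other lower gene (-0.86 ± 0.23, adjusted p = 0.0285, 0.0131 to 0.52 over the alternatives, past the threshold in 9 of 18 and not without the block or without WT arrays 1, 2 or 3).

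**Figure D3:**
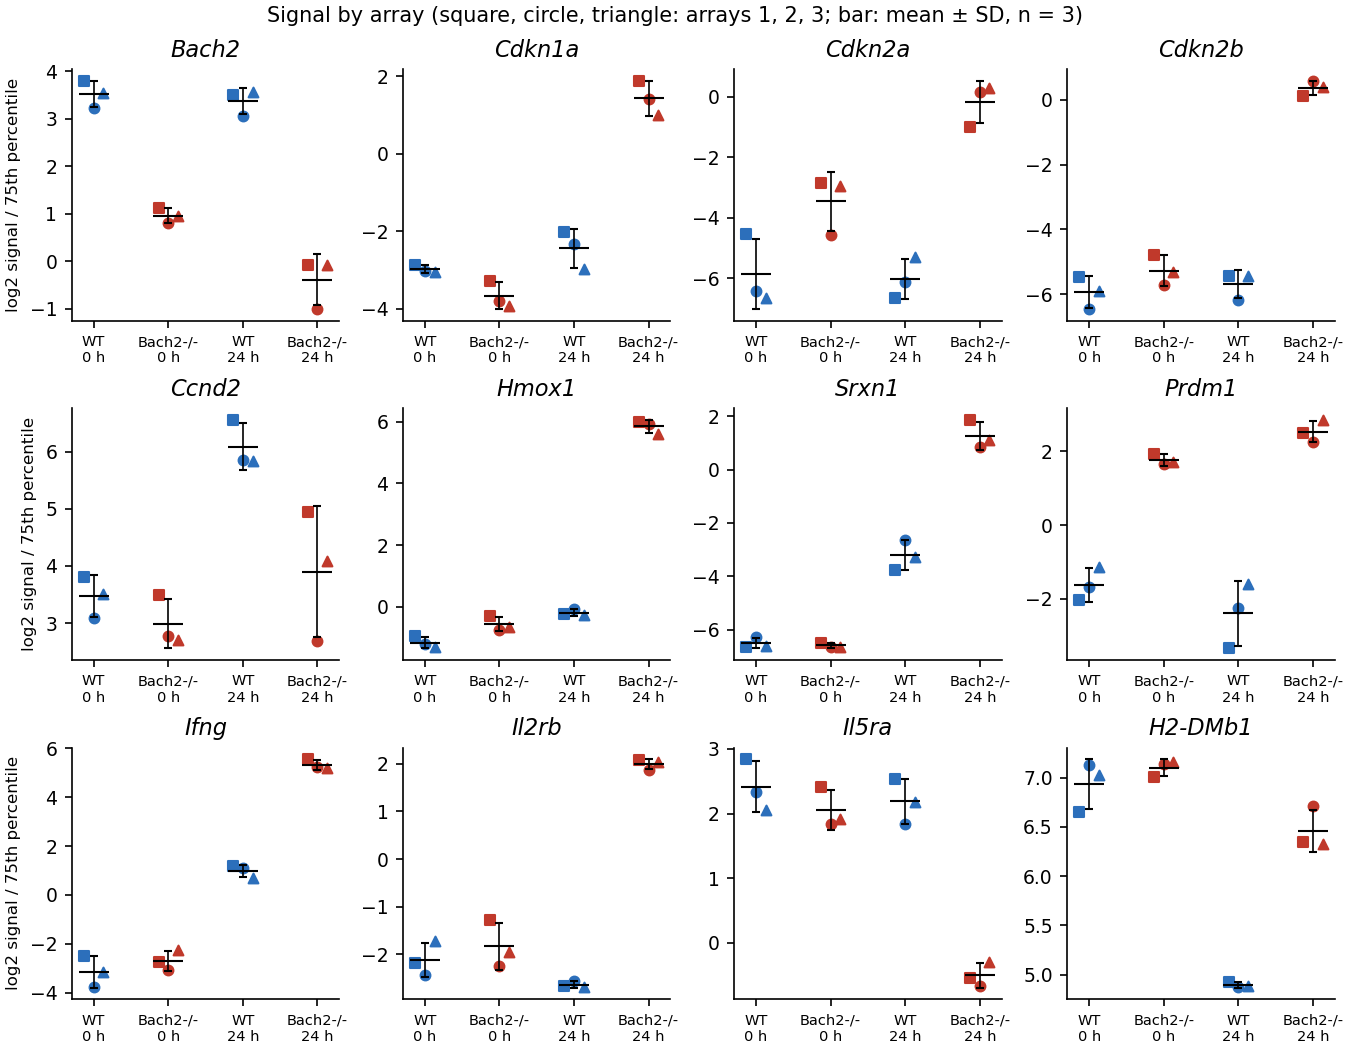
Log2 level relative to the array's 75th percentile (y axis) of 12 named genes on every array, by genotype and time (x axis), with symbols for array number and bars for the mean ± SD (n = 3). Cdkn1a, Cdkn2b, Hmox1, Srxn1, Ifng and Il2rb stand apart in Bach2-/- at 24 h, and Prdm1 at both times.

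With the block, the genes of DNA replication that passed were all lower, and most of the mitosis genes that passed were higher. In DNA replication and nucleotide synthesis, 0 of 34 tested were higher and 18 lower (0 and 0 without the block), with a median log2 difference of -0.82. In fits without 1 array, the count of lower genes was 2 without WT array 1, 3 without WT array 2, 4 without WT array 3 or Bach2-/- array 2 and 10 without Bach2-/- array 1. Rfc3, a clamp loader subunit, was 1.33, 0.78 and 1.00 on the WT arrays and 0.54, -0.68 and 0.0021 on the Bach2-/- arrays (-1.08 ± 0.19, adjusted p = 0.00619, 0.00278 to 0.0891 over the alternatives, past the threshold in each but that without the block). The 3 Bach2-/- arrays lay below the 3 WT arrays. Pold1, the catalytic subunit of DNA polymerase delta, fell by 1.07 ± 0.22 (adjusted p = 0.0103) (0.00187 to 0.263 over the alternatives, past the threshold in each but that without the block). Of genes of mitosis and G2/M, 10 of 30 tested were higher and 2 lower (2 and 0 without the block), with a median log2 difference of 0.66. When 1 array was dropped, the count of higher genes was 3 without WT array 1, 4 without WT array 2 or Bach2-/- array 3, 5 without Bach2-/- array 1 and 16 without Bach2-/- array 2. Ube2c, the ubiquitin carrier of the anaphase-promoting complex, was -0.66, -1.55 and -0.65 on the WT arrays and 1.31, 0.60 and 1.55 on the Bach2-/- arrays (2.10 ± 0.25, adjusted p = 0.000646). Ccnb2, a B-type cyclin, rose by 1.71 ± 0.25 (adjusted p = 0.00202), and both were already higher at 0 h, by 1.14 ± 0.25 (adjusted p = 0.0369) and 1.15 ± 0.25 (adjusted p = 0.0336). Mki67, which encodes the proliferation antigen Ki-67, rose by 1.17 ± 0.31 (adjusted p = 0.0282, 0.00829 to 0.172 over the alternatives, past the threshold in 10 of 18 and not without the block or without WT arrays 1 or 2 or Bach2-/- arrays 1 or 3). Cenpa, the centromeric histone, was a lower member (-1.12 ± 0.20, adjusted p = 0.00551, 0.00185 to 0.33 over the alternatives, past the threshold in each but those without the block and on slide 1 alone). In these bulk RNA samples fewer cells of a given kind and less RNA per cell cannot be told apart.

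Genes of growth and biosynthesis gave calls with the block and none without it. Myc itself was 4.58, 3.73 and 3.71 on the WT arrays and 4.15, 1.90 and 3.47 on the Bach2-/- arrays, with overlapping groups and a difference of -0.83 ± 0.29 (adjusted p = 0.072, 0.0421 to 0.575 over the alternatives). Of the MYC network, 2 of 8 tested were higher and 0 lower (0 and 0 without the block), with a median log2 difference of -0.14. In ribosome biogenesis, 0 of 28 tested were higher and 19 lower (0 and 0 without the block), with a median log2 difference of -0.72. By array left out, the count of lower genes was 3 without WT arrays 1 or 2, 9 without WT array 3 or Bach2-/- array 2 and 11 without Bach2-/- array 1. Rrp12, needed for export of ribosomal subunits, fell by 1.00 ± 0.17 (adjusted p = 0.00523) (0.00241 to 0.199 over the alternatives, past the threshold in each but that without the block). Pes1, of the complex that processes the large subunit's RNA, fell by 1.02 ± 0.19 (adjusted p = 0.00707) (0.00106 to 0.239 over the alternatives, past the threshold in each but that without the block). Among oxidative phosphorylation genes, 0 of 24 tested were higher and 11 lower (0 and 0 without the block), with a median log2 difference of -0.55. Over fits that each dropped 1 array, the count of lower genes was 0 without WT array 1, 1 without WT array 3 or Bach2-/- arrays 1 or 2 and 2 without WT array 2. Of the proteasome, 0 of 25 tested were higher and 2 lower (0 and 0 without the block), with a median log2 difference of -0.37. Among aminoacyl-tRNA synthetases, 1 of 20 tested was higher and 1 lower (0 and 0 without the block), with a median log2 difference of -0.19. Of cholesterol and fatty acid synthesis genes, 0 of 25 tested were higher and 3 lower (0 and 0 without the block), with a median log2 difference of -0.23. With 1 array left out, the count of lower genes was 0 without WT arrays 1 or 2, 1 without WT array 3 or Bach2-/- arrays 1 or 2 and 6 without Bach2-/- array 3. The share of lower genes in ribosome biogenesis, DNA replication and oxidative phosphorylation was above the background of 11.5%, while that of the proteasome, tRNA synthetases and lipid synthesis was near or below it.

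Genes that p53 or the GADD45 stress response controls did not move together: 4 of 23 tested were higher and 6 lower (2 and 1 without the block), with a median log2 difference of -0.13. Leaving out single arrays, the count of higher genes was 2 without WT arrays 1 or 3 or Bach2-/- array 2, and the count of lower genes was 2 without WT array 2 and 3 without WT array 1 or Bach2-/- array 2. Gdf15, a stress-induced cytokine, was not above background in WT and was at least 5.57-fold higher in Bach2-/- (adjusted p = 0.000303). Gadd45a rose by 1.41 ± 0.20 (adjusted p = 0.00156), and its relative Gadd45b fell by 1.28 ± 0.17 (adjusted p = 0.00125). Gadd45b had been higher in Bach2-/- at 0 h, by 1.09 ± 0.17 (adjusted p = 0.00739). Of the BCL2 family, 4 of 13 tested were higher and 3 lower (0 and 0 without the block), with a median log2 difference of -0.13. In fits without 1 array, the count of higher genes was 1 without WT arrays 1 or 3 and 2 without WT array 2 or Bach2-/- arrays 1, 2 or 3, and the count of lower genes was 0 without WT array 1 and 1 without WT arrays 2 or 3 or Bach2-/- arrays 1 or 2. Bcl2l11, which encodes the death activator BIM, rose by 0.80 ± 0.13 (adjusted p = 0.00336, 0.0019 to 0.177 over the alternatives, past the threshold in each but those without the block and on slide 1 alone).

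Plasma cell genes included some of the clearest rises. Prdm1 was -3.35, -2.26 and -1.59 on the WT arrays and 2.49, 2.27 and 2.86 on the Bach2-/- arrays. The genotypes differed by 4.94 ± 0.31 (adjusted p = 1.46e-05), and Prdm1 was already higher at 0 h, by 3.38 ± 0.31 (adjusted p = 0.00043). Of its list, 11 of 20 tested were higher and 0 lower (6 and 0 without the block), with a median log2 difference of 0.73. Ell2, an elongation factor that favours secreted immunoglobulin mRNA, rose by 1.93 ± 0.14 (adjusted p = 3.88e-05). Jchain, the joining chain of secreted IgM, rose by 3.43 ± 0.38 (adjusted p = 0.000418). Ly6c1 (3.25 ± 0.15, adjusted p = 2.9e-06) and the tetraspanin Cd9 (2.95 ± 0.18, adjusted p = 1.17e-05) are surface markers of plasma and marginal zone cells. Xbp1, the transcription factor of the secretory program, rose by 0.94 ± 0.17 (adjusted p = 0.0057, 0.00124 to 0.214 over the alternatives, past the threshold in each but those without the block and on slide 1 alone). Irf4, which acts with Prdm1, was 6.46, 5.68 and 5.54 on the WT arrays and 6.18, 5.25 and 5.54 on the Bach2-/- arrays, and its difference of -0.24 ± 0.14 did not pass (adjusted p = 0.238, 0.122 to 0.882 over the alternatives).

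Genes of the unfolded protein and integrated stress responses were higher in most cases: 16 of 25 tested were higher and 0 lower (5 and 0 without the block), with a median log2 difference of 0.68. Chac1, a glutathione-degrading enzyme induced by ATF4, was 0.055, 0.34 and -0.78 on the WT arrays and 3.03, 2.60 and 2.57 on the Bach2-/- arrays (2.86 ± 0.26, adjusted p = 0.000145). Asns, asparagine synthetase, rose by 2.34 ± 0.23 (adjusted p = 0.000243), and Trib3, a pseudokinase induced by the same factor, by 1.58 ± 0.21 (adjusted p = 0.00132). The chaperones of the endoplasmic reticulum moved less, for example Hsp90b1 by 1.12 ± 0.20 (adjusted p = 0.00557, 0.00122 to 0.0537 over the alternatives, past the threshold in each but that on slide 1 alone). Slc7a3, a cationic amino acid transporter, rose by 3.30 ± 0.21 (adjusted p = 1.61e-05), and Slc7a7 by 2.41 ± 0.18 (adjusted p = 3.48e-05). The amino acid transporters as a list had 3 of 11 higher and 0 lower, 2 of them also without the block.

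AP-1 family members that changed were higher. Of these, 4 of 11 tested were higher and 0 lower (4 and 0 without the block), with a median log2 difference of 0.22. Atf3 was -1.65, -1.75 and -3.09 on the WT arrays and 2.82, 0.63 and 0.99 on the Bach2-/- arrays (3.65 ± 0.58, adjusted p = 0.00333). Fosl1 rose by 2.52 ± 0.47 (adjusted p = 0.00734), and Batf3, not above background in WT, was at least 3.24-fold higher in Bach2-/- (adjusted p = 0.0013). Fosl2 rose by 1.97 ± 0.34 (adjusted p = 0.00483, 0.000119 to 0.069 over the alternatives, past the threshold in each but that on slide 1 alone).

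Many transcription factors that maintain B cell identity were lower. Of the list, which holds Bach2, 1 of 18 tested was higher and 10 lower (0 and 3 without the block), with a median log2 difference of -0.62. Bcl11a, needed for early B cell development, was 4.89, 4.02 and 4.11 on the WT arrays and 3.03, 1.97 and 2.74 on the Bach2-/- arrays (-1.76 ± 0.18, adjusted p = 0.000252). Pou2f2, which encodes the octamer factor Oct-2, fell by 1.26 ± 0.15 (adjusted p = 0.000699). Ebf1 fell by 0.98 ± 0.13 (adjusted p = 0.00102) (0.000286 to 0.0813 over the alternatives, past the threshold in each but that without the block), and Pax5, the factor of B cell commitment, by 1.06 ± 0.16 (adjusted p = 0.0029) (0.00128 to 0.105 over the alternatives, past the threshold in each but those without the block and on slide 1 alone). At 0 h the median difference of the list was -0.0087. Of E proteins and ID inhibitors, 1 of 6 was higher and 1 lower, with 0 and 0 without the block, and the higher call was lost without any 1 array of 24 h except Bach2-/- array 2. Polycomb regulators, which write or read repressive histone marks, gave 6 lower genes of 15 and no higher one, 1 without the block (the count of lower genes was 2 without WT arrays 1, 2 or 3 or Bach2-/- array 1 and 3 without Bach2-/- array 2). Of class switching and somatic hypermutation genes, 0 of 14 tested were higher and 3 lower (0 and 0 without the block), with a median log2 difference of -0.43. When 1 array was dropped, the count of lower genes was 0 without WT arrays 1, 2 or 3 or Bach2-/- array 2.

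Members of the Notch pathway fell around its receptor. Hes5, a target gene of Notch, was 3.99, 2.54 and 3.14 on the WT arrays and 0.45, 0.12 and 0.51 on the Bach2-/- arrays. The Bach2-/- arrays lay far below the WT arrays, with a difference of -2.87 ± 0.21 (adjusted p = 4.01e-05), and at 0 h the difference was -0.31 ± 0.21 (adjusted p = 0.505). Dtx1 (-1.45 ± 0.14, adjusted p = 0.000227) and Lfng (-1.45 ± 0.20, adjusted p = 0.00164), regulators of Notch signalling, and Notch2 itself (-1.01 ± 0.18, adjusted p = 0.00581), the receptor needed for marginal zone B cells, also fell. Rbpj, the DNA-binding partner of Notch, rose by 1.41 ± 0.14 (adjusted p = 0.000253). In count, 2 of 11 tested were higher and 5 lower (1 and 4 without the block), with a median log2 difference of -0.47.

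Among components of B cell receptor signalling, 3 of 30 tested were higher and 10 lower (0 and 2 without the block), with a median log2 difference of -0.15. By array left out, the count of higher genes was 1 without WT array 3 or Bach2-/- array 1, and the count of lower genes was 6 without WT array 1. Syk, the kinase that couples the receptor to its pathway, was 4.99, 4.69 and 4.72 on the WT arrays and 3.30, 3.16 and 3.39 on the Bach2-/- arrays (-1.52 ± 0.16, adjusted p = 0.000311). Cr2, complement receptor 2 and part of the coreceptor, fell by 2.06 ± 0.15 (adjusted p = 3.16e-05) and was lower at 0 h too (-1.04 ± 0.15, adjusted p = 0.00431). Lyn, a kinase with activating and inhibitory roles, fell by 0.83 ± 0.14 (adjusted p = 0.00394) (0.00212 to 0.176 over the alternatives, past the threshold in each but those without the block and on slide 1 alone). Of EGR, NR4A and NAB factors, the early targets of antigen receptor signals, 1 of 8 tested was higher and 2 lower (0 and 1 without the block), with a median log2 difference of 0.11. Nr4a1 fell by 1.82 ± 0.25 (adjusted p = 0.00143). Among NF-kB subunits and inhibitors, 1 of 13 tested was higher and 5 lower (0 and 2 without the block), with a median log2 difference of -0.34. The lower ones were mainly inhibitors and nuclear regulators: Bcl3 (-2.04 ± 0.22, adjusted p = 0.000364), Nfkbid (-2.01 ± 0.20, adjusted p = 0.000253, 1.94e-05 to 0.0584 over the alternatives, past the threshold in each but that without the block) and Tnfaip3, which encodes A20 (-1.20 ± 0.18, adjusted p = 0.00244). Of activation markers and costimulatory molecules, 3 of 15 tested were higher and 4 lower (0 and 2 without the block), with a median log2 difference of -0.17. Over fits that each dropped 1 array, the count of lower genes was 2 without WT array 2. Icosl, the ligand for ICOS on T cells, fell by 1.88 ± 0.20 (adjusted p = 0.000311) and Cd24a, a surface glycoprotein of immature cells, by 1.71 ± 0.23 (adjusted p = 0.00144).

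Most antigen presentation genes were higher in Bach2-/-. H2-DMb1, a subunit of the DM molecule that loads peptide on class II, was 4.92, 4.88 and 4.88 on the WT arrays and 6.35, 6.71 and 6.32 on the Bach2-/- arrays (1.57 ± 0.15, adjusted p = 0.000166), and at 0 h the difference was 0.17 ± 0.15 (adjusted p = 0.611). Of the MHC class II list, 9 of 12 tested were higher and 0 lower (3 and 0 without the block), with a median log2 difference of 0.92. H2-Eb1 rose by 1.25 ± 0.19 (adjusted p = 0.00284), and H2-DMb2 by 1.21 ± 0.14 (adjusted p = 0.00045). The class II chain H2-Aa rose by 1.35 ± 0.13 (adjusted p = 0.000148, 1.57e-05 to 0.109 over the alternatives, past the threshold in each but that without the block). Paralogs of this family are similar in sequence, and whether a probe separates them was not tested.

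Apart from the lists of cell markers, cytokines gave the highest list median at 24 h. Ifng was 1.17, 1.09 and 0.71 on the WT arrays and 5.57, 5.24 and 5.18 on the Bach2-/- arrays. All Bach2-/- arrays exceeded all WT arrays, by 4.33 ± 0.27 (adjusted p = 1.43e-05). In count, 13 of 18 tested were higher and 2 lower (10 and 1 without the block), with a median log2 difference of 1.63. Ccl5, a chemokine for T cells and monocytes, rose by 3.36 ± 0.30 (adjusted p = 0.000108). Cxcl10, an interferon-induced chemokine, was not above background in WT and was at least 6.43-fold higher in Bach2-/- (adjusted p = 0.000166). Lta, lymphotoxin alpha, rose by 1.47 ± 0.14 (adjusted p = 0.000196), and Il10 by 2.22 ± 0.34 (adjusted p = 0.0029, 0.000767 to 0.054 over the alternatives, past the threshold in each but that with normexp background correction). The chemokine Ccl1, outside the list, was among the 12 largest rises (5.17 ± 0.49, adjusted p = 0.000181). Il18 was a lower member (-2.14 ± 0.22, adjusted p = 0.000289). Of interferon-stimulated genes, 11 of 21 tested were higher and 0 lower (8 and 0 without the block), with a median log2 difference of 0.95. Oasl1 was 1.74, 1.53 and 2.45 on the WT arrays and 4.84, 5.03 and 5.47 on the Bach2-/- arrays (3.21 ± 0.22, adjusted p = 2.58e-05), Rsad2, the antiviral enzyme viperin, was at least 4.71-fold higher in Bach2-/- (adjusted p = 5.17e-05), and Isg15 rose by 2.36 ± 0.22 (adjusted p = 0.000164). At 0 h the median difference of the interferon list was 0.032.

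Markers of other cells were examined beside the cytokine, interferon and receptor results. Of all genes tested, 8.13% were higher and 11.5% lower. Without the block, 3 T cell, 1 NK cell, 4 macrophage, 1 neutrophil, 3 dendritic and 4 erythroid or platelet markers were higher. Lower without it were 2 dendritic cell markers and 0 of the other sets. Of T cell markers 8 of 17 were higher and none lower (the count of higher genes was 2 without WT array 1, 3 without WT array 3 or Bach2-/- array 2 and 5 without WT array 2). Their summed signal, relative to the 75th percentile, was 91.6 to 145 on WT and 84.1 to 103 on Bach2-/- arrays of 24 h. For NK cell markers, 2 of 11 higher, the sums were 9.3 to 11.4 and 10.9 to 15.4, with 5 and 3 markers not above background on any array. Macrophage and monocyte markers, 6 of 12 higher and 1 lower, summed to 18 to 21 and 36.8 to 99.6, with 3 and 2 not above background. Among these, Cd5l, a protein secreted by macrophages, rose by 4.08 ± 0.46 (adjusted p = 0.000453) and Lyz2, a lysozyme, by 2.81 ± 0.47 (adjusted p = 0.0044). Sums were 66.8 to 207 and 128 to 291 for neutrophils (4 of 11 higher, the count of higher genes was 1 without WT arrays 1 or 3 or Bach2-/- array 2 and 7 without WT array 2), 132 to 311 and 148 to 388 for dendritic cells (4 of 9 higher, 2 lower, the count of higher genes was 2 without WT arrays 1 or 2), and 9.9 to 12 and 15.3 to 41.4 for erythroid cells and platelets (5 of 10 higher). The median log2 difference of the neutrophil markers was 2.62, above that of the cytokine list. At 24 h the sums of macrophage and of erythroid markers did not overlap between the genotypes. The erythroid sums were already apart at 0 h, 9.35 to 17.9 in WT and 31.9 to 95.5 in Bach2-/-, with 6 markers higher. The NK cell sums were apart at 0 h too, 11.8 to 15.4 in WT and 16.6 to 19.4 in Bach2-/-. Those of T cell, macrophage, neutrophil and dendritic cell markers overlapped at 0 h. The part of other cell types in the cytokine, interferon and receptor results was not tested.

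Markers of B cell subsets also differed, against shares of 8.13% higher and 11.5% lower over all genes. Without the block, 5 B-1, 3 plasma cell, 3 marginal zone, 0 follicular and 0 immature markers were higher. Lower without it were 4 marginal zone markers, 2 immature and 1 follicular, and 0 of B-1 and plasma cells. The summed signal of 10 follicular B cell markers was 436 to 790 in WT and 229 to 369 in Bach2-/- at 24 h, with 6 lower and 0 higher. At 0 h it was 1118 to 1466 and 1168 to 1762. Markers of B-1 cells, 7 of 11 higher and 1 lower, summed to 67.8 to 75.6 and 140 to 154. They include Bhlhe41, a transcription factor of B-1 cells (2.43 ± 0.23, adjusted p = 0.00019), and Cd5, a negative regulator of receptor signals (1.63 ± 0.15, adjusted p = 0.000158). Plasma cell markers, 5 of 9 higher, summed to 123 to 230 and 253 to 444. At 0 h the plasma cell sums were already apart, 147 to 232 in WT and 437 to 766 in Bach2-/-. Those of B-1 markers overlapped at 0 h (53.2 to 87.7 and 83.1 to 105). Marginal zone markers were mixed, with 5 of 13 higher and 6 lower, and their sums overlapped (187 to 342 in WT and 275 to 412 in Bach2-/-). At 0 h the marginal zone sums were apart, 357 to 460 in WT and 586 to 1013 in Bach2-/-, with 6 markers higher and 1 lower. Immature and transitional markers had 4 of 9 higher and 3 lower (the count of higher genes was 1 without WT array 2), and summed to 36.9 to 75.3 in WT and 16.3 to 28.1 in Bach2-/-, without overlap. At 0 h the immature and transitional sums overlapped (180 to 223 and 138 to 203). The part of these B cell subsets in the plasma cell and B cell factor results was not tested.

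Cytokine receptors changed in both directions. Il2rb, the beta chain of the IL-2 and IL-15 receptors, was -2.65, -2.56 and -2.68 on the WT arrays and 2.07, 1.87 and 2.03 on the Bach2-/- arrays. The Bach2-/- arrays were far higher, by 4.62 ± 0.22 (adjusted p = 3.28e-06). Il5ra, the IL-5 receptor chain, was 2.54, 1.84 and 2.18 on the WT arrays and -0.54, -0.67 and -0.29 on the Bach2-/- arrays and fell by 2.69 ± 0.19 (adjusted p = 2.83e-05). Csf2rb, the common beta chain with which it pairs, fell too (-1.46 ± 0.17, adjusted p = 0.00055), as did Csf2rb2, the beta chain specific to IL-3 in the mouse (-1.97 ± 0.22, adjusted p = 0.000392). Tgfbr1 rose by 2.45 ± 0.26 (adjusted p = 0.000294). In count, 5 of 27 tested were higher and 5 lower (2 and 4 without the block), with a median log2 difference of 0.0046. With 1 array left out, the count of higher genes was 2 without WT array 1 and 3 without WT array 2. Of SOCS family members, the feedback inhibitors of cytokine signals, 3 of 8 tested were higher and 2 lower (2 and 0 without the block), with a median log2 difference of -0.21. Socs2 rose by 2.44 ± 0.27 (adjusted p = 0.000439) and Cish by 1.42 ± 0.22 (adjusted p = 0.00279, 0.000387 to 0.0594 over the alternatives, past the threshold in each but that on slide 1 alone), the latter already higher at 0 h by 2.69 ± 0.22 (adjusted p = 0.000189).

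Inhibitory receptors included 2 of the largest rises, Lilrb4a and its near copy Lilr4b. Lilrb4a was 0.23, 0.76 and -0.98 on the WT arrays and 6.17, 5.18 and 5.52 on the Bach2-/- arrays (5.62 ± 0.37, adjusted p = 1.94e-05). Cross-hybridisation between the probes of the 2 genes was not tested. Both were higher at 0 h too, Lilrb4a by 7.18 ± 0.37 (adjusted p = 1.35e-05). In count, 8 of 17 tested were higher and 2 lower (4 and 0 without the block), with a median log2 difference of 0.32. Cd200 rose by 1.12 ± 0.15 (adjusted p = 0.0012, 0.000249 to 0.0715 over the alternatives, past the threshold in each but that without the block). Fcer1g, the signalling chain of activating Fc receptors, was among the 12 largest rises (4.53 ± 0.23, adjusted p = 4.93e-06).

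Homing receptors were also split. Ccr9, the receptor for a gut chemokine, was -2.70, -3.62 and -3.31 on the WT arrays and 0.87, 0.64 and 0.49 on the Bach2-/- arrays (3.88 ± 0.21, adjusted p = 5.95e-06). Ccr7, which guides lymphocytes into T cell zones, fell by 1.64 ± 0.14 (adjusted p = 0.000101), and Gpr18, an orphan-type G protein-coupled receptor of lymphocytes, by 1.72 ± 0.13 (adjusted p = 4.25e-05). Cxcr5, the receptor for follicular entry, fell by 1.07 ± 0.14 (adjusted p = 0.00108) (8.1e-05 to 0.0943 over the alternatives, past the threshold in each but that without the block). In count, 5 of 22 tested were higher and 7 lower (2 and 4 without the block), with a median log2 difference of 0.16. Leaving out single arrays, the count of higher genes was 3 without WT arrays 1 or 3 or Bach2-/- array 1. Of the KLF and FOXO quiescence factors, 2 of 19 tested were higher and 7 lower (0 and 2 without the block), with a median log2 difference of -0.37. In fits without 1 array, the count of lower genes was 2 without WT array 1, 3 without WT arrays 2 or 3 or Bach2-/- array 3 and 4 without Bach2-/- array 1. Klf2, which maintains lymphocyte quiescence and homing receptors, fell by 1.44 ± 0.16 (adjusted p = 0.000414), and Klf3 by 1.30 ± 0.20 (adjusted p = 0.00289).

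S100 proteins and annexins, which bind calcium, included S100a6 at -0.93, -1.03 and -1.60 on the WT arrays and 4.63, 4.17 and 3.70 on the Bach2-/- arrays. The list shares S100a8 and S100a9 with the neutrophil markers. The groups were far apart (5.35 ± 0.19, adjusted p = 5.61e-07), and the difference was 5.33 ± 0.19 at 0 h (adjusted p = 2.91e-06). In count, 7 of 15 tested were higher and 2 lower (4 and 0 without the block), with a median log2 difference of 0.62. When 1 array was dropped, the count of higher genes was 4 without WT array 3. Anxa1 rose by 2.55 ± 0.17 (adjusted p = 2.07e-05), and S100a4 by 2.56 ± 0.46 (adjusted p = 0.00639). Of the RGS proteins, which shorten signals from G protein-coupled receptors, 4 of 11 tested were higher and 4 lower (1 and 0 without the block), with a median log2 difference of 0.087. By array left out, the count of higher genes was 1 without WT array 3 and 2 without WT arrays 1 or 2 or Bach2-/- array 2, and the count of lower genes was 1 without WT array 1 or Bach2-/- array 1 and 2 without Bach2-/- array 2. Rgs16 was -0.067, -0.25 and -0.018 on the WT arrays and 5.55, 5.89 and 4.95 on the Bach2-/- arrays (5.58 ± 0.20, adjusted p = 5.64e-07). Among glycolysis and hypoxia genes, 3 of 21 tested were higher and 4 lower (2 and 0 without the block), with a median log2 difference of -0.14. Over fits that each dropped 1 array, the count of lower genes was 0 without WT arrays 1 or 2 or Bach2-/- arrays 1 or 2 and 1 without WT array 3. The largest of them, Egln3, an oxygen-sensing hydroxylase, was not above background in WT and was at least 16.3-fold higher in Bach2-/- (adjusted p = 0.000112).

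**Figure D4:**
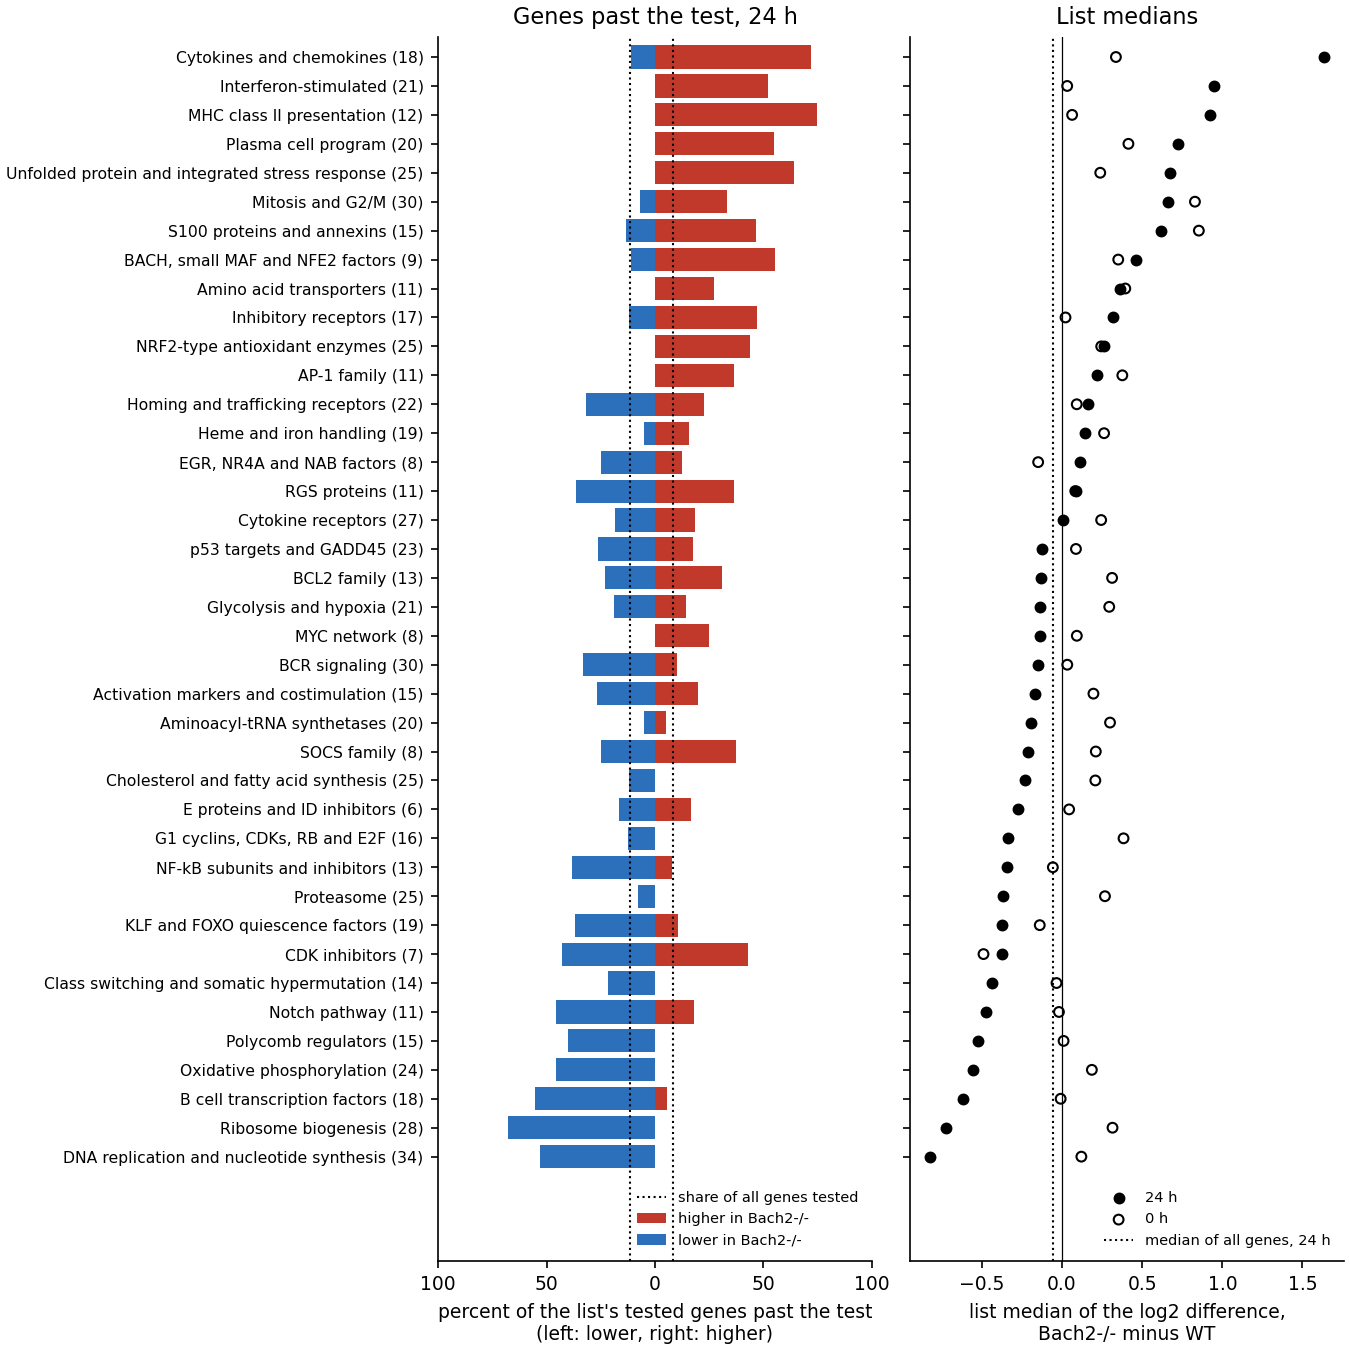
Left, percent of each list's tested genes (number in brackets) that were higher (right of 0) or lower (left of 0) in Bach2-/- at 24 h, with dotted lines at the shares of all genes, 8.13% and 11.5%. Right, list medians of the log2 difference at 24 h (filled) and 0 h (open); of the lists shown, which leave out cell markers, cytokines have the highest and DNA replication the lowest 24 h median.

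Other genes of the largest changes belong to none of these lists. Plau, urokinase, was -5.07, -4.42 and -4.64 on the WT arrays and 2.03, 1.53 and 1.75 on the Bach2-/- arrays, and it was at least 83.6-fold higher in Bach2-/- (adjusted p = 5.64e-07), the largest bound. Cavin3, a caveolar protein, was at least 17.6-fold higher (adjusted p = 0.000143). Rbm47, an RNA-binding protein (5.23 ± 0.15, adjusted p = 1.37e-07), Serpinb6b (5.49 ± 0.23, adjusted p = 1.53e-06) and AA467197 (4.86 ± 0.62, adjusted p = 0.000947) completed the 12 largest rises among genes well above background on all 6 arrays. The 12 largest falls, which Bach2 led, included Nod1, a sensor of bacterial cell walls, at 1.45, 0.86 and 0.43 on the WT arrays and -2.40, -2.48 and -2.38 on the Bach2-/- arrays (-3.33 ± 0.22, adjusted p = 1.93e-05). Tlr1, a Toll-like receptor, fell by 2.23 ± 0.14 (adjusted p = 1.61e-05), Tnfsf14, which encodes the cytokine LIGHT, by 2.28 ± 0.37 (adjusted p = 0.0038), Kynu, a kynureninase, by 2.55 ± 0.27 (adjusted p = 0.000294), and Ell3, an elongation factor of B cells, by 2.53 ± 0.28 (adjusted p = 0.000392). The others were Sema3b (-2.43 ± 0.34, adjusted p = 0.00173), Tmcc3 (-2.40 ± 0.27, adjusted p = 0.000489) and Prr7 (-2.29 ± 0.17, adjusted p = 4.59e-05). Among genes not above background in Bach2-/-, Igf2bp3, an RNA-binding protein of fetal lymphoid cells, was at least 5.34-fold lower (adjusted p = 0.00534, 0.00103 to 0.0888 over the alternatives, past the threshold in each but that on slide 1 alone).

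At 0 h, before stimulation, the same test found 849 genes, 640 higher (2.81%) and 209 lower (0.919%). Genes higher at both times numbered 334, which is 18.1% of those higher at 24 h and 52.2% of those higher at 0 h. Genes lower at both times numbered 86, or 3.28% and 41.1% of the lower genes. The difference at 24 h minus that at 0 h passed its own test for 1157 genes, 431 upward (1.9%) and 726 downward (3.19%). Without the block 78 passed, and with 1 array of 24 h left out between 316 (without WT array 1) and 1709 (without Bach2-/- array 3). The others were below the main count: 410 and 374 without WT array 2 or 3, and 617 and 918 without Bach2-/- array 1 or 2. Without Bach2-/- array 1 of 0 h it was 372.

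The change of difference was largest upward for Hmox1 (5.44 ± 0.21, adjusted p = 5.77e-06) among genes well above background on all 12 arrays. Pcp4, a calmodulin-binding peptide, turned around: it was 1.66, 1.53 and 1.26 on the WT arrays and -1.39, -1.38 and -1.54 on the Bach2-/- arrays at 0 h and 0.22, 0.43 and 0.46 on the WT arrays and 2.90, 2.10 and 2.20 on the Bach2-/- arrays at 24 h. Its difference thus went from -2.92 ± 0.20 to 2.03 ± 0.20, a change of 4.95 ± 0.28 (adjusted p = 4.79e-05). Marcks, a substrate of protein kinase C, turned the other way, from 1.34 ± 0.15 at 0 h to -1.51 ± 0.15 at 24 h (adjusted p of the change = 0.000249). For Cdkn1a the change was 4.56 ± 0.24 (adjusted p = 4.41e-05), and for Rgs16 4.55 ± 0.29 (adjusted p = 0.000122). For Cdkn2a it was 3.44 ± 0.90 and did not pass (adjusted p = 0.057). At 0 h Cdkn2a was above background on all 3 Bach2-/- arrays and 1 of 3 WT arrays.

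**Figure D5:**
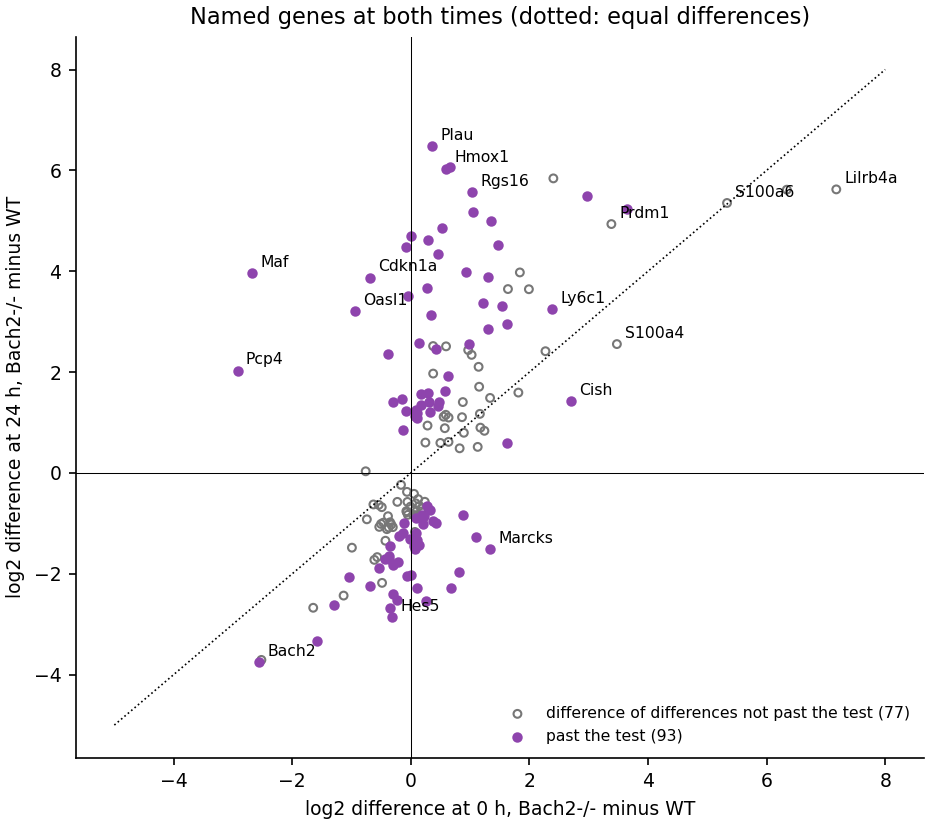
Log2 difference between Bach2-/- and WT at 24 h (y axis) against that at 0 h (x axis) for the 170 named genes, filled where the change between the times passed its test (93 genes) and open where it did not (77 genes). The genes were picked from these data, in part by this change, so the share filled is no separate result. S100a6 lies near the line of equal differences, Hmox1, Plau and Rgs16 far above it, and Maf and Pcp4 are lower in Bach2-/- at 0 h and higher at 24 h.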

How the data were processed

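The authors deposited 1 Agilent Feature Extraction file (version 10.7.3.1, per the submitters' processing notes) for each of the 12 arrays, and the processed signal intensity used here comes, per the file headers, from the scanner software's own 1-colour protocol, whose steps of background subtraction are not given in the sources used here. From it, spots marked as outliers were dropped, spots of a probe averaged, each value divided by its array's 75th percentile, floored at 0.01 and put on a log2 scale. The authors' deposited value table, on a log2 scale, was an alternative. Each of its probes is centred on its median over the 12 arrays, and its array medians run from -0.27 to 0.49. It correlated with the scanner values centred likewise at Pearson r 0.9987 to 0.9997, so its direction is that of the signal, and no source used here states its normalization. Genes were named by RefSeq accession (26407 probes) or else by the file's own name (29274), with the brightest of a gene's probes, and 30735 probes passed the filter on dim probes. Tests used limma 3.58.1 in R 4.3.3 over 12 arrays, with group means and the replicate number as a block. Deviations from group means correlated at 0.469 to 0.890 in 18 same-numbered pairs. They correlated at 0.252 to 0.647 in 12 pairs of other numbers on 1 slide and -0.813 to -0.422 across slides. Array 1 is the only one of its group on its slide, so there number and slide cannot be told apart. On the slide of arrays 2 and 3, same-numbered pairs correlated at 0.469 to 0.753, which overlaps the range of other numbers. Pairing by number is thus not settled by these values. Groups came from the labels. An exact permutation test of 3 against 3 arrays cannot go below p = 0.1. With 3 arrays a group, precision is limited by their number.

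Named genes were the 12 largest rises and falls above background on all 6 arrays, the 4 largest bounds each way, up to 4 genes with the smallest adjusted p per list, a fixed set with Bach2, CDK inhibitors and D-type cyclins, and the 4 largest changes between times each way. Some genes that this rule chose are not reported here. Members and lists were chosen with earlier results of these data known. Bach1, Bhlhe41, Cd5l, Csf2rb, Cxcr5, Gclc, Hsp90b1, Il10, Il18, Jchain, Lyz2, Notch2, Osgin1 and Pax5 were named in addition, after their values were seen. The 18 alternatives changed the block, the arrays, the normalization, the background correction (normexp on the median spot and median background signals), the floor, the filter and the probe rule. The fit was tested on simulated data.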

Additional observations from a re-analysis of the deposited data

Results flagged for a closer look

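The genotype difference at 24 h minus that at 0 h passed limma's test of the difference itself for 1157 of 22744 genes (1.9% upward, 3.19% downward). Of the 170 named genes 93 passed. These were picked from the same data for large differences, small adjusted p or this change itself, so their share is no separate result. The values that follow are that change on the log2 scale, and a positive value means that Bach2-/- cells gained relative to WT between the times. Where a genotype or a time was not above background, as for Plau, Cdkn2b, Cavin3, Egln3, Me1, Gdf15 and Rsad2, the value rests on signal at background and is no bound. The same holds for Srxn1, not well above background on any array of 0 h, and for Ccl1, not above it on any WT array of 0 h. No explanation of the listed changes was tested.

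Among those higher in Bach2-/- at 24 h with no call at 0 h, these were Plau (6.12), Hmox1 (5.44), Cdkn2b (5.40), Cavin3 (4.69), Srxn1 (4.57), Cdkn1a (4.56), Il2rb (4.33), AA467197 (4.33) and Ccl1 (4.11). It also passed for Ifng (3.88), Egln3 (3.65), Me1 (3.55), Gdf15 (3.40), Rsad2 (3.05), Nqo1 (2.79), Isg15 (2.74), Ifih1 (2.43) and Ccl5 (2.15). Further members were Tgfbr1 (2.03), Gadd45a (1.71), Lta (1.62), H2-DMb1 (1.40), Anxa2 (1.32), Trib3 (1.29), H2-Aa (1.19), H2-Eb1 (1.17) and Fth1 (1.10). Smaller changes were those of Atf5 (1.08), Cd5 (1.06), Cd200 (1.05), Klf9 (0.99), Slc16a3 (0.98), Rbpj (0.93), H2-DMb2 (0.89) and Slc48a1 (0.86). Of the named genes higher at both times, with the larger difference at 24 h, the change passed for Rgs16 (4.55), Fcer1g (3.05), Ccr9 (2.58), Serpinb6b (2.51), Slc7a3 (1.76), Rbm47 (1.59), Anxa1 (1.57), Chac1 (1.56) and Cd9 (1.34). It also passed for Ell2 (1.30) and Ly6c1 (0.87). Among those higher at both times, with the larger difference at 0 h, these were Cish (-1.28) and Bbc3 (-1.03). Of the named genes higher at 24 h and lower at 0 h, the change passed for Maf (6.65), Pcp4 (4.95) and Oasl1 (4.16). Among those lower in Bach2-/- at 24 h with no call at 0 h, these were Prr7 (-2.97), Kynu (-2.80), Csf2rb2 (-2.78), Hes5 (-2.55), Tnfsf14 (-2.38), Il5ra (-2.33), Ell3 (-2.30), Tmcc3 (-2.10) and Nfkbid (-2.02). It also passed for Bcl3 (-1.97), Syk (-1.58), Klf2 (-1.58), Bcl11a (-1.54), Nr4a1 (-1.53), Lfng (-1.51), S1pr4 (-1.43), Rrp12 (-1.42) and Icosl (-1.35). Further members were Cd24a (-1.34), Nop16 (-1.33), Klf3 (-1.29), Gpr18 (-1.28), Fas (-1.28), Ccr7 (-1.27), Polr1c (-1.22), Dtx1 (-1.10) and Rars (-1.08). Smaller changes were those of Pou2f2 (-1.06), Ldha (-1.06), Tnfaip3 (-1.06), Atp5o (-1.03), Tcf3 (-0.97), Xrcc6 (-0.92) and Nfkbia (-0.88). Of the named genes lower at both times, the change passed for Nod1 (-1.74), Tlr1 (-1.54), Plpp3 (-1.32), Bach2 (-1.20) and Cr2 (-1.02). Among those lower at 24 h and higher at 0 h, these were Marcks (-2.85) and Gadd45b (-2.37). Of the named genes not past the test at 24 h, the change passed for Myc (-1.71).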

How the results depend on the processing

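The replicate block mattered most. With no replicate block, 729 genes passed at 24 h in place of 4469, 514 higher and 215 lower, and 170 at 0 h and 78 for the difference of differences. Slide 1 alone, arrays 2 and 3 with the replicate block, gave 1124 at 24 h (750 higher, 374 lower), 174 at 0 h and 125 for the difference of differences. Slide 2 holds 1 array per group, so that no test was possible in it. With the 6 arrays of 24 h alone 2294 passed, 971 of them lower. Without the filter on dim probes 2154 passed (1179 higher, 975 lower), with 428 at 0 h and 261 for the difference of differences, and normexp gave 1212 higher genes. Leaving out Bach2-/- array 1 of 0 h and array 2 of 24 h gave 2215 (949 lower), 528 at 0 h and 287. Chosen after seeing the data, leaving out array 1 of both genotypes at 24 h gave 1484 (902 higher, 582 lower) and 279 for the difference of differences. Leaving out Bach2-/- array 1 of 0 h, chosen likewise, gave 3328 at 24 h (1565 higher, 1763 lower). That fit gave 339 at 0 h and 372 for the difference of differences. With 1 array of 24 h left out, 1686 to 4435 genes passed at 24 h (956 to 1671 higher, 730 to 2764 lower), 668 to 1366 at 0 h and 316 to 1709 for the difference of differences. The median difference of all genes, -0.055, was 0.0081 with normexp, 0.13 without the filter and -0.087 over probes above background on all 12 arrays. The sign of Ccnd1, which did not pass, reversed on slide 1 alone (-0.16), with quantile normalization (-0.25), in the authors' table (-0.0089), without Bach2-/- array 1 of 0 h and array 2 of 24 h (-0.18), in fits without 1 array of 24 h (range -0.36 to 0.58) and without array 1 of both genotypes (-0.16), and that of Irf4 with quantile normalization (0.028). The cause was not tested in any of these. No named gene past the test changed sign. Of 165 named genes past the test, 97 passed without the block and 90 in all 18 alternatives in which they had a value. Named genes were picked largely for a small adjusted p or a large change, which favours such counts. Of all 4469 genes called, 16.3% passed without the block. Only 378 higher and 135 lower ones passed in every alternative in which they had a value. Signal over background limits the dimmest genes, for which bounds are given.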

Other observations

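Some of the widest fitted differences at 24 h were in genes that were above background on only 1 or 2 arrays of a genotype, and they were picked after their values were seen. Their fitted sizes rest in part on signal at background, so they are neither measured folds nor bounds. Ndrg4 was -4.32, -5.33 and -3.62 on the WT arrays and 2.46, 3.15 and 2.36 on the Bach2-/- arrays, and its limma difference was 7.08 ± 0.41, adjusted p = 9.68e-06, above background on 2 of 3 WT arrays. Ptgir, the prostacyclin receptor, was -6.29, -6.47 and -4.26 on the WT arrays and -0.15, 1.10 and 0.41 on the Bach2-/- arrays (6.13 ± 0.52, adjusted p = 9.13e-05), above background on 1 of 3 WT arrays. Bach2-/- arrays were higher than WT arrays without overlap in both of these. In the other direction, Kcnk10, a potassium channel, was 0.61, -0.18 and -0.17 on the WT arrays and -3.40, -3.63 and -3.94 on the Bach2-/- arrays (-3.74 ± 0.19, adjusted p = 3.84e-06), above background on 2 of 3 Bach2-/- arrays. Scimp, an adaptor of antigen-presenting cells, was -0.27, -1.04 and -0.94 on the WT arrays and -5.03, -3.75 and -3.81 on the Bach2-/- arrays (-3.45 ± 0.35, adjusted p = 0.000266), above background on 1 of 3 Bach2-/- arrays. Without the block the adjusted p was 5.48e-06 for Ndrg4, 9.34e-05 for Ptgir, 0.000269 for Kcnk10 and 0.000317 for Scimp.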
